A study of Mus musculus with 6 samples.

Results

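The transcripts of the replicative helicase and of the factors that load and activate it were followed in haematopoietic stem cells of HLF KO mice and of their wild-type littermates. The 10 genes were chosen by function, with earlier results of these data known. They encode the helicase subunits Mcm2 to Mcm7, the loaders Cdt1 and Cdc6, and the activation factors Mcm10 and Cdc45. Their reads were summed over the RefSeq transcripts of each symbol, and they are 10 of 23574 gene features. Of the 10 genes, 8 passed the filter on low counts and were tested among 10204 genes. Each genotype had 3 libraries, all from C57BL/6 mice and each made from 3000 freshly sorted cells that lacked lineage markers, CD34 and Flt3 and carried Sca-1 and c-Kit. HLF KO mice lack hepatic leukaemia factor (Hlf), a PAR bZIP transcription factor, and the study asked about quiescence of stem cells. Neither the mice's age and sex nor the deleted part of the gene is stated in the material used here. It is also not stated whether each library came from its own mouse, so the p-values reflect library-to-library spread, some of which may be technical.

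Before a cell copies its DNA, the origin recognition complex and Cdc6 hold an origin while Cdt1 delivers the ring of MCM subunits, a step called licensing that is confined to late mitosis and G1. In S phase, kinases and firing factors join Cdc45 and the GINS complex to the ring, and with Mcm10 the helicase starts to unwind DNA. Most adult haematopoietic stem cells rest in G0, where MCM genes are known to be little expressed, and E2F factors switch these genes on as cells leave rest.

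The knockout libraries 1, 2 and 3 held 10462713, 10182464 and 11998296 counts, and the wild-type libraries 8346335, 9902102 and 8800688, so each knockout library was deeper than each wild-type one. Wild-type libraries resembled each other less: correlating log2 CPM over the genes, which are not independent replicates, gave r = 0.869 to 0.883 among knockout libraries, 0.749 to 0.805 among wild-type libraries and 0.776 to 0.848 between genotypes. Wild-type library 1 had the fewest detected features (10796). Hlf fell to 34.4 ± 5.30 CPM (normalised CPM, counts scaled to a common library size) in knockout, against 1382.1 ± 274.2 CPM in wild type (SD, n = 3 each), as the labels require. It was the 1 gene of 10204 with an adjusted p under 0.05 by edgeR's quasi-likelihood test (0.00980% of genes). The stem cell genes Procr, Mecom, Tek and Fgd5 were detected in all 6 libraries. Kit, Ly6a (Sca-1) and Cd34 had at most 8 counts in any library. These 3 genes have several listed transcripts each, a class with few counts here, so the sort could not be checked on them.

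Promoter letters of the members are shown because E2F factors are the textbook regulators of MCM genes. RefSeq windows of assembly GRCm38.p6, from 250 bases before to 50 bases after the start, were on hand for 9 of the 10 genes, all but Mcm4. They were searched on both strands for the E2F letters TTTCCCGC, TTTGGCGC, TTTCGCGC and TTTGCCGC. Of 10 windows of members (Mcm7 has 2), 6 held a match (60%), against 2.27% of 32851 windows of the same length in the table. The matches lay in Mcm3, Mcm5, Mcm6, Mcm7, Cdt1 and Cdc6, and no match was found in the windows of Mcm2, Mcm10 and Cdc45. The Mcm10 window ends in TTTGGCG, the start of TTTGGCGC, so a match across its edge could not be seen. The letters CCAAT, also searched on both strands, were in 8 of the 10 windows (80%), against 37.4% of all windows. Mcm2, Mcm10 and Cdc45 were among the genes that held CCAAT. The letters TTACGTAA and TTATGTAA, read by PAR bZIP factors, were in 0 of the 10 windows and in 1.06% of all windows. At so low a share 10 windows would seldom hold a match, so nothing is read from the 0. The following sequences run 5′ to 3′ on the gene's strand, with E2F matches in capitals. Those of Mcm5, at chr8:75109259-75109508 (+ strand), Mcm6, at chr1:128359706-128359955 (- strand), and Mcm10, at chr2:5012792-5013041 (- strand), are the 250 bases before the start. That of Mcm7, at chr5:138172030-138172059 (- strand), surrounds its upstream match, and that of Mcm3, at chr1:20820267-20820293 (- strand), holds both of its matches, from 20 to 46 bases after the start.
Mcm3: GCGGGAAAacttgggaagtTTTGGCGC
Mcm5: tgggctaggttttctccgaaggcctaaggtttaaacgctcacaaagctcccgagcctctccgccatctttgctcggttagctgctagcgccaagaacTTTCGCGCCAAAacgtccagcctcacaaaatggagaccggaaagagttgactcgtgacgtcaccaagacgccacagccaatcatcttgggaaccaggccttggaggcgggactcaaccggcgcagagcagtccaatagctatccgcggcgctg
Mcm6: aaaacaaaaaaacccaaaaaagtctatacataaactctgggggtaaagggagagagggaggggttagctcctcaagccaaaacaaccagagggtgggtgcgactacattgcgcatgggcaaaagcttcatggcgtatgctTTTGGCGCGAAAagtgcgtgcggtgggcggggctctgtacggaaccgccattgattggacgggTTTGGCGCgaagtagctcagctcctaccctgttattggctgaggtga
Mcm7: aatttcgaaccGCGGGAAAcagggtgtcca
Mcm10: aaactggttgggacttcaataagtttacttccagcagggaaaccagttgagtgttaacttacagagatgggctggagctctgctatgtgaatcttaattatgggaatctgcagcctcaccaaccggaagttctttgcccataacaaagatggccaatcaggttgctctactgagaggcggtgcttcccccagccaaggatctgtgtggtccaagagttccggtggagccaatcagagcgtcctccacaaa
In Mcm5 and at the upstream site of Mcm6, matches on the 2 strands overlap and form a run of 12 capitals. A match is a run of letters, and binding of a factor was not measured here.

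All 6 helicase subunits had higher mean values in knockout than in wild type, by 1.20-fold (Mcm7) to 1.93-fold (Mcm3). No subunit passed edgeR's test after adjustment over the 10204 genes, so no change of a single subunit is called. Summed over the 6 subunits, the level was 1835, 2263 and 1689 CPM in knockout libraries 1, 2 and 3, against 1163, 1254 and 1396 CPM in wild-type libraries 1, 2 and 3. The lowest knockout library lay above the highest wild-type library, and the means were 1929 ± 298 CPM in knockout and 1271 ± 117 CPM in wild type (SD, n = 3 each). The difference of mean log2 sums was 0.60, and 0.59 with every library thinned to 8346335 counts. In bulk libraries, a larger share of cells with these transcripts and more transcripts per cell cannot be told apart.

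Of the 8 tested members, 8 had a positive log2 fold change, against 47.2% of all tested genes, and their median was 0.61, against -0.05 over all genes. Values were higher in every knockout library than in every wild-type library for 3 of the 8 (Mcm3, Mcm4 and Mcm5), against 7.52% of all genes. At an unadjusted p under 0.05 in edgeR's test, 4 of the 8 stood higher (Mcm3, Mcm4, Mcm5 and Mcm6) and 0 lower. Of all 10204 genes, 268 (2.63%) stood higher and 474 lower. The members were chosen with earlier results of these data known, so these counts describe the list and do not test it. After adjustment 0 of the 8 passed by edgeR, and 0 passed by DESeq2 (which called 1.09% of the genes to which it gave an adjusted p) or by limma-voom. In simulated data edgeR's test recovered 6% of 2-fold changes, so not passing does not show that these genes are unchanged.

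**Figure D1:**
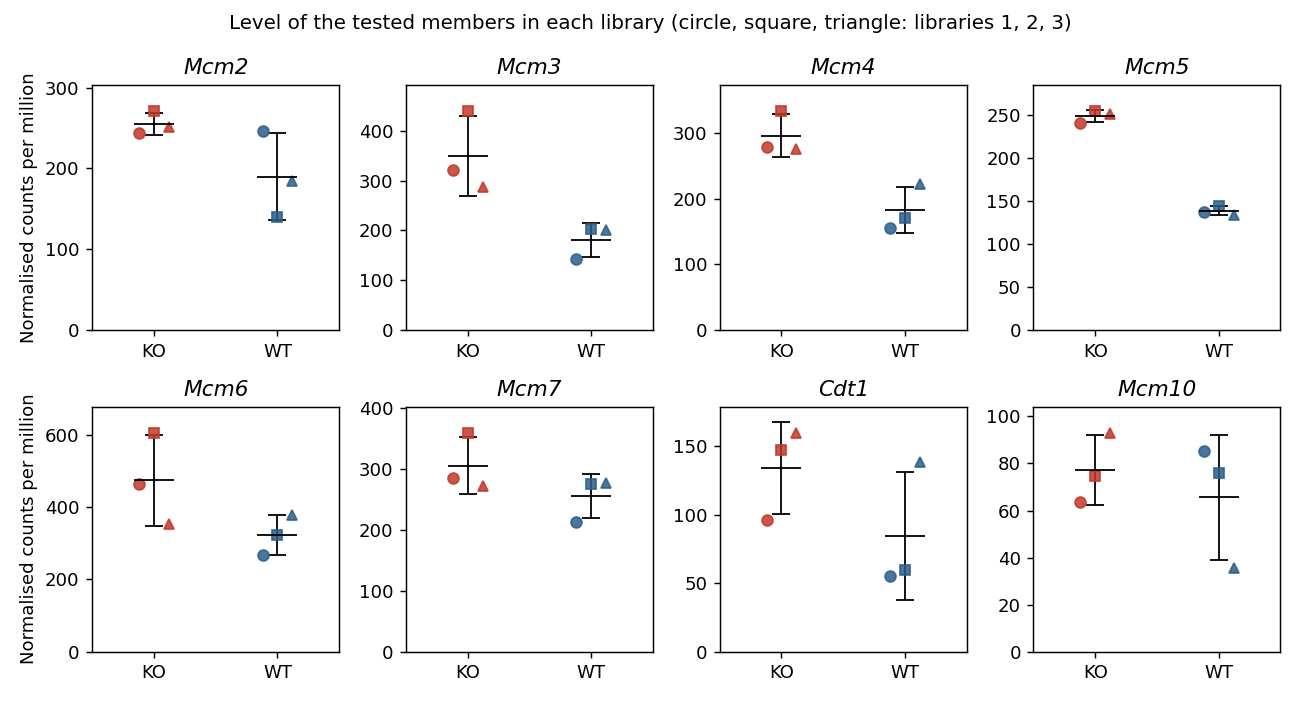
Normalised CPM (linear axis from 0) of the 8 tested members in each HLF KO and wild-type library; points are libraries, horizontal marks and bars the mean and SD of 3. The genotypes are separate for Mcm3, Mcm4 and Mcm5 and overlap for Mcm2, Mcm6, Mcm7, Cdt1 and Mcm10.

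Mcm5, which with Mcm2 forms the gate through which the ring opens around DNA, had the tightest values of the 8 members in both genotypes. It stood at 240, 254 and 251 CPM in knockout libraries 1, 2 and 3, against 137, 144 and 134 CPM in wild-type libraries 1, 2 and 3. The genotypes did not overlap, and the lowest knockout value was 1.67 times the highest wild-type value. The coefficient of variation was 2.95% in knockout and 3.85% in wild type, close to the counting error of 1.86% to 3.04% that its counts allow. The log2 fold change was 0.84 (SE 0.24, 95% interval 0.33 to 1.36, edgeR adjusted p = 0.47).

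Mcm3, the partner of Mcm5 in the ring and the subunit whose C-terminus is known from yeast to contact the loading machinery, showed the largest fold among the members. It stood at 322, 439 and 287 CPM in knockout libraries 1, 2 and 3, against 141, 202 and 200 CPM in wild-type libraries 1, 2 and 3. Knockout library 2 was the highest and wild-type library 1 the lowest, and the genotypes did not overlap. The log2 fold change was 0.95 (SE 0.26, 95% interval 0.39 to 1.51, edgeR adjusted p = 0.47), and 0.77 without knockout library 2.

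Mcm4, which with Mcm6 and Mcm7 forms the catalytic core of the helicase, stood at 278, 333 and 275 CPM in knockout libraries 1, 2 and 3. In wild-type libraries 1, 2 and 3 it stood at 156, 170 and 222 CPM. The genotypes did not overlap, with wild-type library 3 nearest to the knockout. The log2 fold change was 0.69 (SE 0.24, 95% interval 0.16 to 1.22, edgeR adjusted p = 0.56).

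Mcm6, also of the catalytic core and the site on the ring to which Cdt1 binds, had 465, 606 and 353 CPM in knockout libraries 1, 2 and 3, against 268, 323 and 379 CPM in wild-type libraries 1, 2 and 3. Knockout library 3 lay below wild-type library 3, so the genotypes overlapped. The log2 fold change was 0.55 (SE 0.25, 95% interval 0.01 to 1.10, edgeR adjusted p = 0.68), and 0.35 without knockout library 2.

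Mcm2, the subunit that carries histones at the fork and opens the gate with Mcm5, had 244, 271 and 251 CPM in knockout libraries 1, 2 and 3. In wild-type libraries 1, 2 and 3 it had 246, 140 and 184 CPM. Wild-type library 1 was at the knockout level, just above knockout library 1, and the log2 fold change was 0.43 (SE 0.26, 95% interval -0.15 to 1.00, edgeR adjusted p = 0.74). It was 0.67 without wild-type library 1 and 0.25 without wild-type library 2.

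Mcm7 had the smallest difference of the 6 subunits, with 285, 359 and 272 CPM in knockout libraries 1, 2 and 3, against 213, 275 and 277 CPM in wild-type libraries 1, 2 and 3. The genotypes overlapped, and the log2 fold change was 0.26 (SE 0.23, 95% interval -0.25 to 0.76, edgeR adjusted p = 0.83). It was 0.14 without knockout library 2 and 0.16 without wild-type library 1. In the GENCODE M21 annotation, Mcm7 shares 321 of its 4426 exon bases with Ap4m1 and 64 with Cops6, both on the opposite strand. Whether the counting used strand is not stated in the material used here. Reads from these bases may therefore be of either gene. On its own strand Mcm7 also shares 84 exon bases with Mir25 and 88 with Mir93, both microRNA genes.

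The proportions of 2 of the 6 subunits were separate between genotypes. Levels were divided by transcript length (GENCODE M21) to compare genes, and each subunit was expressed as a share of the summed CPM per kilobase of the 6. Mcm6 had the largest share in every library, 26.3 ± 3.17% in knockout and 27.3 ± 2.11% in wild type (SD, n = 3 each). Mcm3 held 18.2%, 20.1% and 17.8% in knockout libraries 1, 2 and 3, against 12.7%, 16.6% and 14.8% in wild-type libraries 1, 2 and 3. Mcm7 held 16.5%, 16.8% and 17.2% in knockout libraries 1, 2 and 3, against 19.6%, 23.1% and 21.0% in wild-type libraries 1, 2 and 3. For both subunits the genotypes did not overlap, in opposite directions, while the shares of Mcm2, Mcm4, Mcm5 and Mcm6 overlapped. The shares of a library make up a whole and so depend on each other. Mcm3 and Mcm7 had the largest and the smallest fold of the 6, and their shares restate these folds. No share over all genes was computed to set beside this count.

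In order of mean level per kilobase, the subunits in knockout were Mcm6 (163 ± 43.6 CPM per kilobase), Mcm3 (115 ± 26.3), Mcm7 (103 ± 15.9), Mcm4 (82.3 ± 9.13), Mcm2 (75.7 ± 4.18) and Mcm5 (73.5 ± 2.17) (SD, n = 3). In wild type the order was Mcm6 (111 ± 19.0 CPM per kilobase), Mcm7 (86.2 ± 12.3), Mcm3 (59.7 ± 11.3), Mcm2 (56.4 ± 15.9), Mcm4 (50.9 ± 9.66) and Mcm5 (40.9 ± 1.58) (SD, n = 3). Mcm3 and Mcm7 thus change places between the genotypes, and so do Mcm2 and Mcm4. Neighbours in this order whose means differed by less than the larger of their SDs were Mcm3 and Mcm7, Mcm4 and Mcm2, and Mcm2 and Mcm5 in knockout, and Mcm3 and Mcm2, and Mcm2 and Mcm4 in wild type. No test was made of the shares or of this order, so both are given as descriptions.

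**Figure D2:**
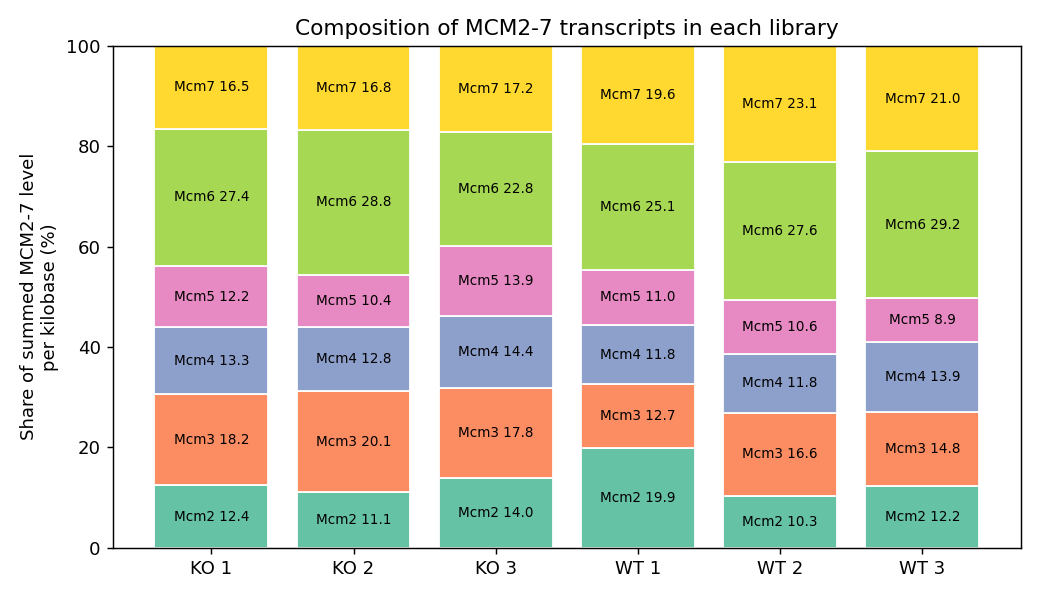
Share (%) of each of the 6 MCM2-7 subunits in their summed CPM per kilobase, one stacked bar per library, HLF KO libraries on the left and wild-type libraries on the right. Mcm3 takes 17.8% to 20.1% in knockout and 12.7% to 16.6% in wild type, and Mcm7 takes 16.5% to 17.2% in knockout and 19.6% to 23.1% in wild type.

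Of the 2 loaders, Cdt1 could be tested. Cdt1, which brings the MCM ring to the origin, had 96.0, 147 and 159 CPM in knockout libraries 1, 2 and 3, against 54.8, 59.5 and 138 CPM in wild-type libraries 1, 2 and 3. Wild-type library 3 lay inside the knockout range and the other two wild-type libraries below it. The log2 fold change was 0.67 (SE 0.41, 95% interval -0.22 to 1.57, edgeR adjusted p = 0.74), and it was 1.23 without wild-type library 3 and 0.46 without wild-type library 1.

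Cdc6, the ATPase that works with the origin recognition complex, could not be measured. Its 2 listed transcripts together had 1, 2 and 0 counts in knockout libraries 1, 2 and 3, against 9, 0 and 2 counts in wild-type libraries 1, 2 and 3. The median total count was 3 for genes with 2 listed transcripts and 79 for genes with 1, so these counts are not read as low expression.

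Mcm10, which helps the loaded helicase to start unwinding, was the member with the smallest log2 fold change. It had 63.7, 74.8 and 93.0 CPM in knockout libraries 1, 2 and 3, against 85.4, 75.8 and 35.6 CPM in wild-type libraries 1, 2 and 3. The genotypes overlapped, knockout library 3 was the highest and wild-type library 3 the lowest of all. The log2 fold change was 0.23 (SE 0.42, 95% interval -0.68 to 1.15, edgeR adjusted p = 0.93). It was -0.060 without wild-type library 3, 0.085 without knockout library 3 and 0.48 without wild-type library 1. Wild-type library 3 was thus the lowest wild-type library for Mcm10 and the highest for Mcm4, Mcm6, Mcm7 and Cdt1.

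Cdc45, the helicase cofactor that joins the ring with GINS, has 2 listed transcripts and was not tested. It had 5, 7 and 4 counts in knockout libraries 1, 2 and 3, against 0, 0 and 3 counts in wild-type libraries 1, 2 and 3. The knockout libraries are deeper, the gene belongs to the class with few counts, and 209 of its 3506 exon bases are shared with Ufd1 on the opposite strand.

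The neighbours of the members in origin licensing and firing were a list of 32 genes, of which 23 could be tested. Of these, 16 had positive and 7 negative log2 fold changes, with a median of 0.42. By edgeR 0 passed after adjustment, 1 stood higher at an unadjusted p under 0.05 and 0 lower. Over all tested genes 47.2% were positive and 2.63% stood higher at that p. Values were higher in every knockout library than in every wild-type library for 3 of the 23 (13.0%), against 7.52% of all genes. Of the origin recognition complex, which marks the origins, 3 of 6 subunits were tested and 3 were positive. Orc1, its cell-cycle-regulated subunit, had 45.0, 69.6 and 32.6 CPM in knockout libraries 1, 2 and 3, against 12.5, 16.7 and 52.6 CPM in wild-type libraries 1, 2 and 3. Its log2 fold change was 0.85, that of Orc5 0.34, and that of Orc4 1.63 with an interval of -1.37 to 4.62, on 3 listed transcripts and at most 91 counts in a library.

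All 4 subunits of GINS, which sits with Cdc45 on the active helicase, were tested and positive, from 0.33 (Gins4) to 0.94 (Gins3). Gins2 had 54.5, 59.4 and 153 CPM in knockout libraries 1, 2 and 3, against 24.2, 67.5 and 70.7 CPM in wild-type libraries 1, 2 and 3, and a log2 fold change of 0.72 (SE 0.53). Gins1 stood at 0.85 (SE 1.07, on 2 listed transcripts). Their 95% intervals all held 0.

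Of 6 firing factors, 6 were tested, and 5 were positive. Wdhd1, the fork protein that ties the helicase to DNA polymerase alpha, was the 1 with an unadjusted p under 0.05. It had 144, 159 and 150 CPM in knockout libraries 1, 2 and 3, against 86.5, 101 and 93.5 CPM in wild-type libraries 1, 2 and 3, with no overlap and a log2 fold change of 0.69 (SE 0.28). Ticrr, which helps to bring Cdc45 to the ring, also did not overlap (log2 fold change 0.67, SE 0.37). Donson, which helps to deliver GINS to the ring, had 20.5, 23.8 and 13.2 CPM in knockout libraries 1, 2 and 3, against 39.4, 18.6 and 81.7 CPM in wild-type libraries 1, 2 and 3. Its log2 fold change was -1.28 (SE 0.63), with overlap between the genotypes. Of the kinases and cyclins, Ccna2 stood at 0.42 (SE 0.30) and Ccne1 at 0.29 (SE 0.66), while Cdc7, Dbf4, Cdk2 and Ccne2 had too few counts to test.

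Genes that limit licensing had log2 fold changes on both sides of 0, with 2 of 4 tested genes positive. Gmnn (geminin), the inhibitor of Cdt1, had 46.2, 40.9 and 43.2 CPM in knockout libraries 1, 2 and 3, against 22.8, 22.2 and 62.2 CPM in wild-type libraries 1, 2 and 3, and a log2 fold change of 0.28 (SE 0.54). Dtl, which targets Cdt1 for destruction in S phase, stood at 0.46 (SE 0.27) with no overlap, and Cul4a, the scaffold of the same ligase, at -0.63 (SE 0.30).

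Relatives and partners of the ring that do not belong to it had log2 fold changes below 0, with overlap between the genotypes. Of 4 tested genes, 4 had negative log2 fold changes. Mcmbp, which binds MCM subunits outside the ring, stood at -0.29 (SE 0.30), Mcm9, a helicase of DNA repair, at -0.60 (SE 0.77), and Mcmdc2, a meiotic relative, at -0.65 (SE 1.33). Mcm8, the repair partner of Mcm9, stood at -0.22 (SE 0.57). Mcmbp had 153, 175 and 146 CPM in knockout libraries 1, 2 and 3. In wild-type libraries 1, 2 and 3 it had 145, 279 and 156 CPM. Mcm9 had 10.1, 37.4 and 36.5 CPM in knockout, against 7.51, 75.2 and 45.0 CPM in wild type, in the same order. For both genes wild-type library 2 was the highest and wild-type library 1 the lowest of all, and their sign without library 2 was not checked. Mcmdc2 had 13 to 31 counts per library. The intervals of all 4 genes held 0, and the difference between them and the ring subunits was not tested.

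**Figure D3:**
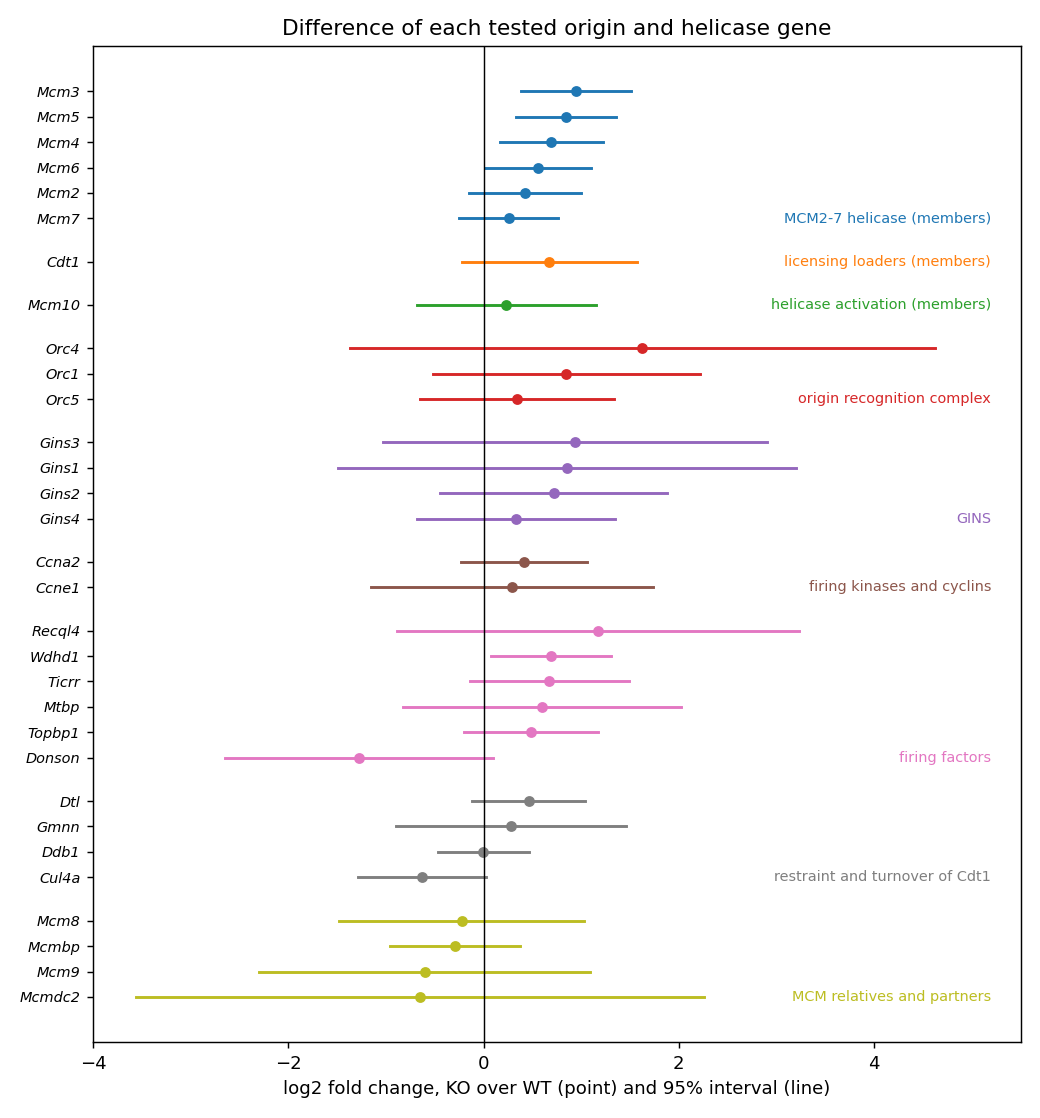
Log2 fold change of HLF KO over wild type (point, edgeR) with its 95% interval (line) for the 8 tested members and the tested genes of origin licensing and firing, by role. The intervals of Mcm3, Mcm5, Mcm4, Mcm6 and Wdhd1 lie above 0 before adjustment, and 0 genes shown passed after adjustment.

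Beside the members, genes of the replication fork and of mitosis had values on the same side. Of 23 tested fork genes 20 were positive (median log2 fold change 0.41), and 4 stood higher and 0 lower at an unadjusted p under 0.05. Over all tested genes 47.2% were positive and 2.63% stood higher at that p. Pole, the catalytic subunit of the leading-strand polymerase, stood at 0.80 (SE 0.29), and Tipin, which steadies the fork, at 0.74 (SE 0.31). Pcna, the sliding clamp, differed less, at 0.30 (SE 0.22). Of 13 mitosis genes 12 were positive (median 0.73), among them Bub1b at 1.18 (SE 0.32), Kif11 at 0.81 (SE 0.23) and Top2a at 0.67 (SE 0.28). Of 11 tested E2F and pocket protein genes 8 were positive, with the activator E2f3 at 0.98 (SE 0.36), the repressor E2f8 at 0.85 (SE 0.32) and E2f2 at -0.68 (SE 0.47). By edgeR 0 genes of these lists passed after adjustment. The summed MCM2-7 level was 0.604 ± 0.0158 of that of the fork genes in knockout and 0.527 ± 0.0601 in wild type, and 0.475 ± 0.0163 of that of the mitosis genes in knockout and 0.472 ± 0.0464 in wild type (SD, n = 3 each).

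Outside the members, the genes whose profile over the 6 libraries was nearest to that of the summed MCM2-7 level were Cfl1, Coro1c, Hdgf, Sdha and Cep295. The root mean square difference of centred log2 CPM was 0.0856 to 0.109, among 6603 genes whose mean log2 CPM reached 4. Cfl1, the actin-severing protein cofilin, had 753, 786 and 682 CPM in knockout libraries 1, 2 and 3, against 447, 519 and 552 CPM in wild-type libraries 1, 2 and 3. With 6 libraries and 6603 genes, a near profile is a description only.

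Summed marker genes of stem cells and of some other cells were also separate between genotypes. The 16 stem cell genes summed to 399 to 502 CPM in knockout and 647 to 821 CPM in wild type. Megakaryocyte genes summed to 574 to 779 CPM in knockout and 219 to 322 CPM in wild type, and erythroid genes to 1946 to 2497 CPM in knockout and 1607 to 2012 CPM in wild type. The 10 neutrophil and monocyte genes summed to 73.2 to 213 CPM in knockout, and to 135 and 262 CPM in wild-type libraries 2 and 1 but 2710 CPM in wild-type library 3. B-lineage genes summed to 34.0 to 53.4 CPM in knockout and 83.6 to 146 CPM in wild type, and T-lineage genes to 24.9 to 43.5 CPM in knockout and 17.5 to 124 CPM in wild type. The 4 macrophage genes in the files summed to 9.61 to 32.7 CPM in knockout and 11.2 to 24.9 CPM in wild type. The macrophage marker Adgre1 was at or near 0 in all 6 libraries, while Hba-a1, Hbb-b1 and Alas2 had 0 counts. Without wild-type library 3 the difference of mean log2 MCM2-7 sums was 0.67, against 0.60 with all libraries. The part of the other lists in the MCM values was not tested.

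**Figure D4:**
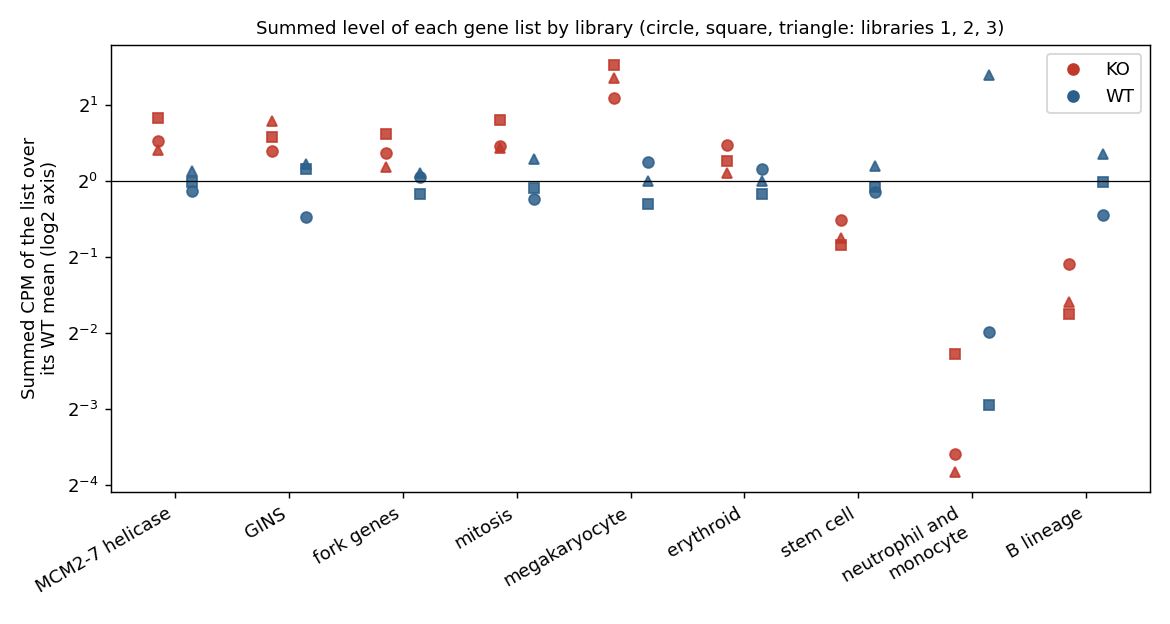
Summed CPM of MCM2-7 and of 8 other gene lists in each HLF KO (left of each pair) and wild-type library, divided by the wild-type mean of that list, on a log2 axis. Of these lists, the erythroid and the neutrophil and monocyte sums overlap between genotypes and the others do not, and the neutrophil and monocyte sum of wild-type library 3 stands far above the other 5 libraries.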

How the data were processed

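RNA was sequenced from 3000 sorted stem cells per library, with TruSeq kits per the labels' protocols. Per RefSeq transcript, the authors deposited raw read counts in whole numbers. TopHat and mouse build mm9 were used, per the submitters' processing notes. The aligner version, counting tool, annotation, strand setting and treatment of shared reads: not given in the sources used here.

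Symbols came from RefSeq (GRCm38.p6) for 30363 of 30858 transcripts and from GENCODE for 179, and 316 kept their accession. Coordinates are printed for RefSeq promoter windows only. Counts per gene were tested with edgeR 4.0.16 (R 4.3.3), using TMM factors, filterByExpr (minimum count 10, total 15) and the robust quasi-likelihood test of knockout against wild type. The fit held all 6 libraries and no covariate. Benjamini-Hochberg adjustment covered 10204 genes. Standard errors came from the F statistic. The test was checked on simulated data, with spread taken from these libraries and changes placed in genes of mean log2 CPM of at least 4. It recovered 6% of 2-fold and 62% of 4-fold changes, with 9 false calls among 135. DESeq2 1.42.0 and limma 3.58.1 served as alternatives, with other scaling, filters, thinning to 8346335 counts, a replicate block and each library left out.

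Members' counts ran from 321 to 6434 per library, a counting error of 1.25% to 5.58%, which covers counting error only. Named genes are the members, Hlf, the 3 genes of smallest p per pathway list, the 5 nearest profiles and the markers. A gene named by this rule is not reported here. Gins4, Mcm8 and Pcna were chosen after their values were seen, where the rule did not name them. Members and lists were chosen with earlier results of these data known.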

Additional observations from a re-analysis of the deposited data

How the results depend on the processing

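Under all 17 alternatives 0 members passed the adjusted threshold, and 7 to 9 members were positive (9 of 10 where no filter on low counts was used). The log2 difference of the MCM2-7 sum was 0.60 and ranged from 0.49 to 0.69. The smallest adjusted p of a member was that of Mcm3 by DESeq2 (0.0735, against 0.999 as the largest over its alternatives). The number of genes called over the whole table was 1, and it was 9 without a filter on low counts, 108 by DESeq2, 3 by limma-voom with sample quality weights, 2 with the replicate block, and 1 to 3 with 1 library left out (3 without wild-type library 1 and 2 without wild-type library 2). Members higher in every knockout library numbered 3, 4 with upper-quartile factors (Mcm2 added) and 5 without a filter (Mcm2 and Cdc45 added). With 1 library left out they numbered 3 to 5: Mcm2 joined without wild-type library 1, Mcm2 and Cdt1 without knockout library 1, Mcm6 and Mcm7 without knockout library 3, and Mcm6 and Cdt1 without wild-type library 3. Fewer libraries make this condition easier to meet, so such a rise is no sign of a firmer result. The share over all genes was not computed for these alternatives. With 1 library left out the log2 fold change of Mcm10 ran from -0.060 (without wild-type library 3) to 0.48. The difference in share, leaving out 1 library at a time or thinning (both chosen after seeing the data), ran from 3.00 to 4.95 percentage points for Mcm3 and from -5.24 to -3.46 for Mcm7. The replicate numbers are not said to pair libraries, and deviations of same-numbered libraries correlated at -0.01, -0.02 and 0.02. The block changed no call of a member.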
